A study of Mus musculus with 4 samples.

Results

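The genes described here make or control the mineral of bone matrix. They are the secreted acidic glycoprotein and phosphoprotein genes Ibsp, Spp1, Dmp1 and Mepe, the osteocalcin genes Bglap and Bglap2, the endopeptidase gene Phex, the osteoblast membrane protein gene Ifitm5, and the phosphatase genes Alpl and Phospho1. Members were chosen by name, 10 genes in all, with earlier results of these data known. Every array row whose gene symbols included one of them was taken. A row is one feature of the array, read by many probes along a transcript. The annotation supplied with the values gave rows for 8 of the 10 genes, 9 rows among the 25335 that carried at least 1 symbol. Alpl had 2 rows, and the row of Phospho1 was shared with Zfp652, so that its level cannot be assigned to either gene. Spp1 and Bglap2 were named on no row and were not analysed here.

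Total RNA came from primary osteoblast cultures of neonatal mouse calvaria, the flat bone of the skull vault, kept for 21 days in medium with ascorbate and glycerol phosphate. The mutant group had the genotype Runx3f/f/Col1a1-cre, in which Cre under the Col1a1 promoter acts on floxed Runx3 alleles in cells that make type I collagen. Other cells of such a culture would keep the gene. The comparison group was labelled wild type, and the labels do not say whether it carried floxed alleles or Cre. Each group had 2 Affymetrix Mouse Gene 2.0 ST arrays, labelled biological replicates 1 and 2, and 200 ng of RNA was labelled for each. The labels do not state how many animals stood behind a culture.

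Bone mineral forms when osteoblasts lay down a collagen scaffold and then load it with calcium phosphate. The phosphatase encoded by Alpl removes pyrophosphate, an inhibitor of crystal growth, and the one encoded by Phospho1 frees phosphate inside matrix vesicles. The SIBLING proteins, among them Ibsp, Dmp1, Mepe and Spp1, are secreted, bind calcium and carry an RGD motif read by integrins; their genes lie side by side on chromosome 5. Phex, mutated in X-linked hypophosphataemia, acts on peptides of these proteins. Bglap encodes osteocalcin, which is carboxylated in a vitamin K dependent step.

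As a check of the labels, the row of Runx3 was read first, and it was not lower in the mutant-labelled cultures. On the deposited log2 scale it read 7.94 and 8.06 on the mutant-labelled arrays of replicates 1 and 2, and 7.45 and 7.87 on the WT arrays. The labels name no deleted exon, and since the probes of a row span the transcript, signal may remain after a deletion. For this reason the text speaks of mutant-labelled and WT arrays. A tissue tag on all arrays reads myoblast. Of 13 myogenic markers 11 were tested, and 2, Myf6 and Myh3, lay on every array below the detection floor of 4.72 (the 90th percentile of receptor rows of the nose, taken as silent here). The median difference of the 11 was 0, with 2 lower and 1 higher within both replicates (19.1% and 17.1% of all tested rows). Myod1 read 5.45 and 6.42, the same values in both groups, while the brightest were Des, the muscle intermediate filament gene, at 8.11 and 8.24 on the mutant-labelled and 7.59 and 7.99 on the WT arrays, and Acta1, skeletal muscle actin, at 7.02 and 7.88 against 7.26 and 8.06. The bone collagen gene Col1a1 read from 13.45 to 13.57. Replicate 2 read higher than replicate 1 by a median of 0.29 in both groups over the 20258 rows tested. Mutant-labelled and WT values were exactly equal, to the last deposited digit, in 36.4% of tested rows in replicate 1 and 50.1% in replicate 2. Among the 9 mineralization gene rows 1 had equal values, the brighter Alpl row in replicate 2.

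Promoter sequence is shown for Ibsp, Dmp1 and Mepe, the neighbouring SIBLING genes with the widest differences, and for Bglap. Each sequence is the 250 bases upstream of a RefSeq transcript start in GRCm38.p6, 5′ to 3′ on the gene's own strand. Capitals mark a form of the core letters bound by Runt factors, TGTGGT, or ACCACA on the other strand. They also mark the CCAAT box, CCAAT, or ATTGG on the other strand. Other forms of the Runt core were not searched. The second motif was chosen after the sequences were read. No printed matches overlap.
Ibsp, chr5:104299037-104299286, plus strand: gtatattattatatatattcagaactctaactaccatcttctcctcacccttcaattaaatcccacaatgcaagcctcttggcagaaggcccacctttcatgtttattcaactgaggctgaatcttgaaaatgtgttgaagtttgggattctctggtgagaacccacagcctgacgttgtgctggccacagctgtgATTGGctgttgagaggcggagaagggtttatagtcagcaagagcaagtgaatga
Dmp1, chr5:104202367-104202616, plus strand: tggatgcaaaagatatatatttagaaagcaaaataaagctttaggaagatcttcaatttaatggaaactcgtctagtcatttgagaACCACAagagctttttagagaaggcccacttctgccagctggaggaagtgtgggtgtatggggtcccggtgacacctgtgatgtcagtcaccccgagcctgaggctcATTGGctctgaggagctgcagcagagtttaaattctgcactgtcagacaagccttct
Mepe, chr5:104325079-104325328, plus strand: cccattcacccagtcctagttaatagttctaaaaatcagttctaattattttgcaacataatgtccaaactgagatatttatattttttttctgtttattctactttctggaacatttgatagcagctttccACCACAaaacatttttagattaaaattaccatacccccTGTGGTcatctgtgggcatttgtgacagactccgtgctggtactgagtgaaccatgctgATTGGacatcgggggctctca
Bglap, chr3:88384467-88384716, minus strand: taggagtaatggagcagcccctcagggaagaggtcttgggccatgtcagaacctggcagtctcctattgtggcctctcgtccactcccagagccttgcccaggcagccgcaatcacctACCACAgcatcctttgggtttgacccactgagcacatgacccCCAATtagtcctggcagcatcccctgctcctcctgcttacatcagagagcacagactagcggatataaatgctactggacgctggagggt
The Runt letters begin 164 bases upstream of the start at Dmp1, 118 and 80 bases upstream at Mepe, and 132 bases upstream at Bglap, and no match lies in the Ibsp window. ATTGG begins 54 bases upstream at Ibsp, 57 at Dmp1 and 21 at Mepe, and CCAAT begins 90 bases upstream at Bglap. Dmp1 has a further start whose window holds ATTGG and no Runt letters. Over the 10 windows of the 8 genes with a row, 3 windows held the Runt letters and 6 held the CCAAT box. Of all 32817 promoter windows of this length, 14% held the former and 33.8% the latter. The windows of Phex, Ifitm5 and Alpl held neither. These letters describe the windows and show no binding.

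Most mineralization genes read lower on the mutant-labelled arrays. At least 1.5-fold lower within both replicates were 6 of the 9 rows, those of Ibsp, Dmp1, Mepe, Ifitm5, Phex and the shared Phospho1 row, against 1.07% of all tested rows. None was that much higher within both, against 1.58% of all tested rows. Since the members were chosen with earlier results of these data known, counts set beside all tested rows are a description only. A row with equal values in either replicate can pass neither count, which lowers both shares of all tested rows. Such rows were 36.4% of tested rows in replicate 1 and 50.1% in replicate 2. The other rows were Bglap, which was lower by less, and both rows of Alpl. The median log2 difference of the 9 rows was -0.83, with -0.89 in replicate 1 and -0.77 in replicate 2. That of all tested rows was 0, and -0.007 with rows equal in both replicates left out. No row passed an adjusted p of 0.05 in limma, which is 0% of the 20258 tested, and the smallest adjusted p of any row was 0.352. At unadjusted p under 0.05 there were 768 rows (3.79%). The same 6 rows were lower at unadjusted p under 0.05 with at least 1.5-fold, against 1.17% of all tested rows in that direction. Without mutant-labelled replicate 1, or without WT replicate 2, that count was 3. On the same arrays 21 of 22 macrophage markers were lower within both replicates (median -1.57), whose part in these differences was not tested. In bulk RNA, fewer cells of a type and less RNA per cell cannot be told apart. Folds assume base 2.

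**Figure D1:**
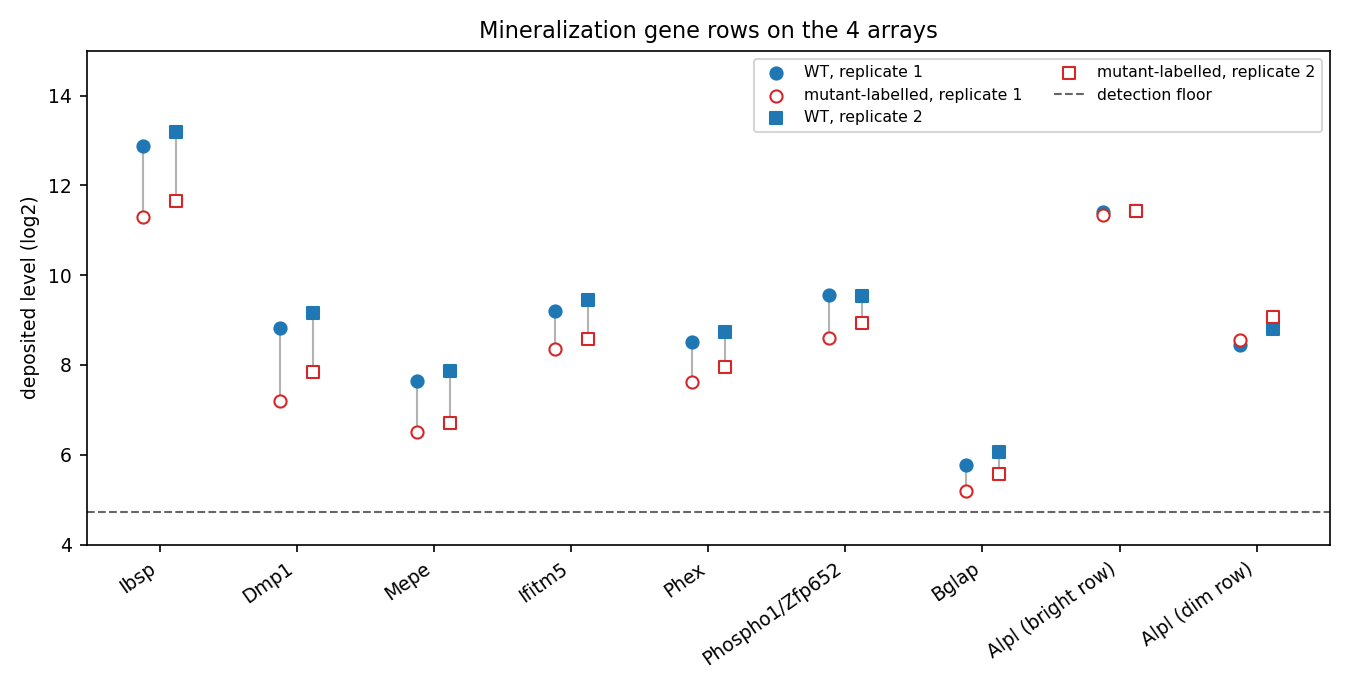
Deposited log2 level (y axis) of each mineralization gene row (x axis) on the 4 arrays; filled symbols are WT, open symbols mutant-labelled, circles replicate 1 and squares replicate 2, with grey lines joining the arrays of a replicate and the dashed line at the detection floor of 4.72. In 7 rows both open symbols lie below both filled ones; the 2 Alpl rows are the exceptions.

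Ibsp, Dmp1 and Mepe showed the widest gaps of the 9 rows. Ibsp encodes bone sialoprotein, an acidic matrix protein that seeds hydroxyapatite. It read 11.31 and 11.66 on the mutant-labelled arrays of replicates 1 and 2, and 12.87 and 13.19 on the WT arrays. Both mutant-labelled arrays lay below both WT arrays, and the gap between groups was wider than that between replicates of a group. The mean level was 2.92-fold lower (11.48 ± 0.25 against 13.03 ± 0.23, SD, n = 2; 95% interval of the log2 difference -2.17 to -0.92, limma adjusted p = 0.517). Counted from the most negative, its difference held rank 57 among the 20258 tested rows.

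Dmp1, dentin matrix protein 1, is made mainly by osteocytes and late osteoblasts and restrains the phosphate hormone FGF23. Its row read 7.20 and 7.84 on the mutant-labelled arrays and 8.82 and 9.15 on the WT arrays. The arrays did not overlap, although the mutant-labelled replicates were 0.63 apart, the widest replicate gap among the 9 rows. The mean was 2.76-fold lower (log2 difference -1.46, SE 0.29, 95% interval -2.32 to -0.61, limma adjusted p = 0.744). Within the replicates the gene was 3.05-fold and 2.49-fold lower.

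Mepe encodes a matrix phosphoglycoprotein whose acidic peptide, the ASARM peptide, inhibits mineralization. It read 6.50 and 6.70 on the mutant-labelled arrays and 7.65 and 7.87 on the WT arrays. The groups stood apart, and the difference was nearly alike in the replicates, at -1.15 and -1.16. The mean was 2.23-fold lower (95% interval -1.63 to -0.68, limma adjusted p = 0.517). Dspp, a further SIBLING gene, active mainly in teeth, was at the edge of detection and held equal values, with the same 4.28 in both groups of replicate 1 and 4.91 in both groups of replicate 2.

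Phex, on chromosome X, encodes the endopeptidase that cleaves ASARM peptides. It read 7.62 and 7.95 on the mutant-labelled arrays and 8.51 and 8.73 on the WT arrays. Both mutant-labelled arrays were lower than either WT array. The mean was 1.78-fold lower (log2 difference -0.83, SE 0.19, 95% interval -1.39 to -0.28, limma adjusted p = 0.885).

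Ifitm5, also called BRIL, encodes a small osteoblast membrane protein that is mutated in type V osteogenesis imperfecta. It read 8.35 and 8.58 on the mutant-labelled arrays and 9.21 and 9.45 on the WT arrays. The groups did not overlap. The mean was 1.82-fold lower (log2 difference -0.87, SE 0.17, limma adjusted p = 0.741), with -0.86 and -0.87 within the replicates.

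Bglap read 5.19 and 5.56 on the mutant-labelled arrays and 5.76 and 6.06 on the WT arrays. Even the highest of these values lay only 1.35 log2 units above the detection floor, which makes this a dim readout for a late osteoblast gene. The arrays did not overlap, yet the gap was under 1.5-fold in both replicates (1.49-fold and 1.41-fold lower). The 95% interval of the log2 difference ran from -1.16 to 0.08 and so included 0 (limma adjusted p = 1). The paralogue Bglap3 was named on no row and was not analysed here.

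The phosphatases act at the start of mineral formation. The row shared by Phospho1 and Zfp652, a zinc finger gene of the same chromosome, read 8.60 and 8.93 on the mutant-labelled arrays and 9.56 and 9.54 on the WT arrays. It was 1.72-fold lower in the mean (log2 difference -0.79, SE 0.17, limma adjusted p = 0.844), with -0.96 in replicate 1 and -0.61 in replicate 2. The WT replicates of this row differed by -0.02 and did not share the general rise in replicate 2, which left its 2 differences furthest apart among the 9 rows.

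Alpl, whose product is the tissue-nonspecific alkaline phosphatase, showed no gap between the groups. Its brighter row read 11.33 and 11.42 on the mutant-labelled arrays and 11.40 and 11.42 on the WT arrays. The values of replicate 2 were exactly equal, so that only replicate 1 carries a difference, of -0.07. The 95% interval of the log2 difference was -0.40 to 0.33 (limma adjusted p = 1), which does not show that the gene was unchanged. The dimmer row was higher in both replicates, by 0.10 and 0.27, and its groups overlapped (8.55 and 9.07 against 8.46 and 8.80). Its 95% interval was -0.58 to 0.94 (limma adjusted p = 1).

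The replicates gave like differences for most of these genes. Differences in replicate 1 and replicate 2 were -1.56 and -1.53 for Ibsp, and for the 9 rows they lay at most 0.35 apart. In 7 of the 9 rows both mutant-labelled arrays lay below both WT arrays, against 8.77% of all tested rows. In the same 7 rows the group difference was larger than the gap between replicates of either group. That property implies separated arrays and adds no further support, and its share of all tested rows was not counted. Lower within both replicates were 7 rows, against 19.1% of all tested rows, and higher within both was 1, against 17.1%. Rows with equal values in a replicate can enter neither these counts nor that of separated arrays, which lowers the shares of all tested rows. Among the 9 rows 1 held equal values. From replicate 1 to replicate 2 the 9 rows shifted by a median of 0.33 in the mutant-labelled and 0.24 in the WT group, close to the 0.29 of all rows.

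**Figure D2:**
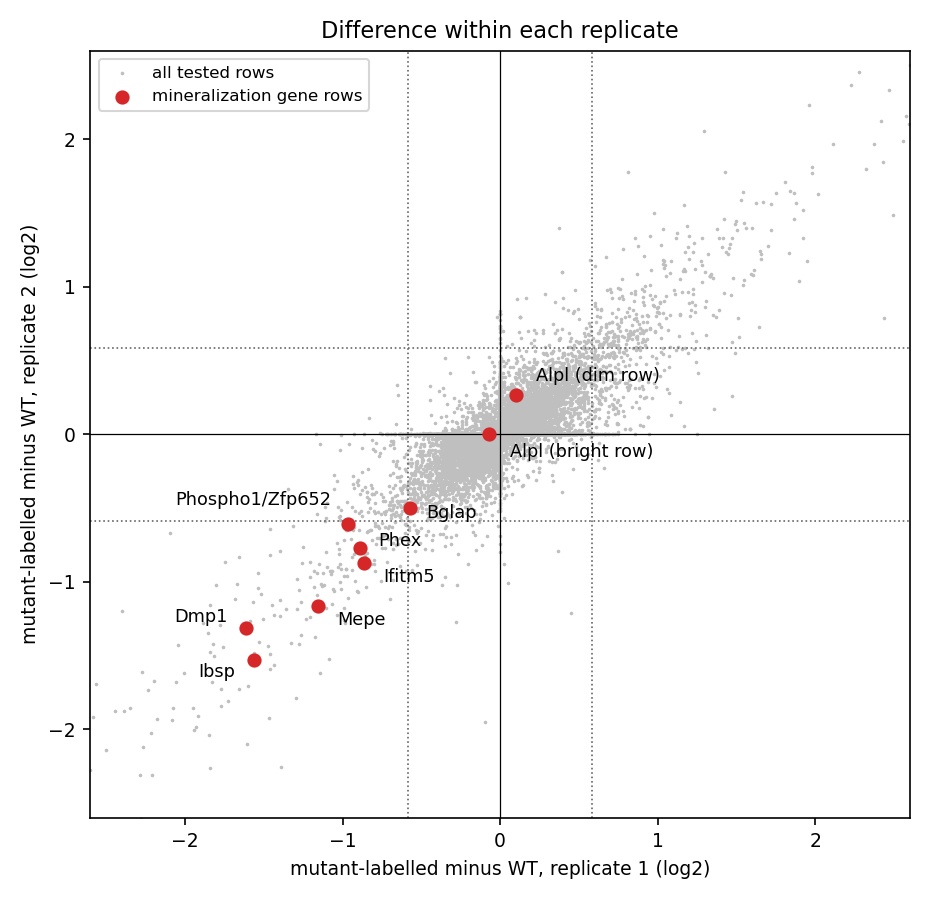
Log2 difference between the mutant-labelled and WT array in replicate 1 (x axis) and in replicate 2 (y axis) for every tested row (grey) and the 9 mineralization gene rows (red); dotted lines mark 1.5-fold, and 21 rows fall outside the axes. Ibsp, Dmp1 and Mepe lie beyond a log2 difference of -1 in both replicates, Bglap inside the 1.5-fold lines, and the Alpl rows near 0.

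Other genes of mineral handling were read from lists of named genes. None of these genes passed the adjusted threshold with the group-only model. Among genes that move phosphate, pyrophosphate or vesicle lipids the median was -0.01 over 15 tested genes. It rests partly on equal deposited values, held in a replicate by Abcc6, Ppa2, Anxa2, Anxa5 and Slc4a2. Within both replicates 7 of the 15 genes were lower and 3 higher, against 19.1% and 17.1% of all tested rows. Slc13a5, the citrate transporter of osteoblasts, was the only one of them at unadjusted p under 0.05: it read 8.64 and 8.59 on the mutant-labelled arrays and 9.48 and 9.39 on the WT arrays (log2 difference -0.82, SE 0.12, limma adjusted p = 0.54). The pyrophosphate exporter gene Ank was at -0.50 and -0.21 within the replicates. Enpp1, which makes pyrophosphate, was named on no row and was not analysed here. Inhibitors of mineral and genes of the vitamin K cycle had a median of 0 over 9 genes, with none at unadjusted p under 0.05. That median was 0 within each replicate. It rests partly on equal deposited values, held in a replicate by Mgp, Ahsg, Ggcx, Vkorc1 and Nqo1. Fetub had the smallest p of that list, at a log2 difference of -0.31.

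The collagen scaffold showed small differences. Of 19 matrix scaffold genes 7 were lower and 0 higher within both replicates, against 19.1% and 17.1% of all tested rows. The median was -0.01 (0.02 after quantile normalization again), and the differences ran from -0.22 (Plod2, a collagen lysyl hydroxylase) to 0.04, with none at unadjusted p under 0.05. Col1a1 and Col1a2, the chains of type I collagen, differed by -0.01 and -0.02, signs that turned to 0.02 and 0.01 after quantile normalization again, and held equal values in replicate 2. So did many other genes of the list, Col5a1, Sparc, Dcn and Lox among them. The list median was -0.02 in replicate 1 and 0 in replicate 2, so it rests partly on equal deposited values. Receptors of RGD proteins had a median of -0.01 over 12 genes, with Itga5 the member of smallest p at -0.33. Their median was -0.01 in replicate 1 and 0 in replicate 2. It too rests partly on equal deposited values, as in Itgb3, Itgb8 and Itga4.

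A list of secreted phosphoprotein kinases and genes of late osteoblasts or osteocytes had a median of -0.08 over 20 genes. Within both replicates 13 were lower and 2 higher, against 19.1% and 17.1% of all tested rows. By at least 1.5-fold within both, 4 were lower and 1 higher, against 1.07% and 1.58% of all tested rows. At unadjusted p under 0.05 there were 5 lower and 1 higher, each by at least 1.5-fold in the mean. Of all tested rows, 1.17% were lower by that rule, and the share higher by it was not counted. Car3, carbonic anhydrase III, read 7.78 and 8.20 on the mutant-labelled arrays and 11.15 and 11.38 on the WT arrays (log2 difference -3.27, limma adjusted p = 0.352). Panx3, a channel protein of osteoblasts and chondrocytes, was at -1.24 (limma adjusted p = 0.358). Sgms2, a sphingomyelin synthase whose mutation causes a skeletal fragility disorder, was at -1.14 (limma adjusted p = 0.374). Tnfrsf19, a receptor of the TNF family, was the member higher, at 0.94 (limma adjusted p = 0.517). With an intensity trend in limma's variance model Car3, Panx3 and Sgms2 passed the adjusted threshold (limma adjusted p = 0.0239, 0.0307 and 0.0309). After quantile normalization again with the replicate number as a block, these 3, Tnfrsf19, Fam20c and Slc13a5 passed it. Fam20c, the kinase that phosphorylates SIBLING proteins, was at -0.60, while the osteocyte genes Sost and Fgf23 were dim and at -0.08 and -0.06.

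Genes that regulate mineralization did not read lower as a list. The median was 0.02 over 23 tested genes (-0.02 with arrays centred on their medians). Within each replicate it was 0, and it rests partly on equal deposited values, as in Runx1, Atf4, Sox9 and Mef2c. Of all tested rows 3.79% had an unadjusted p under 0.05 in either direction, and in this list 3 higher and 0 lower did. These were Hey1, a Notch target that restrains Runx2, at 2.14, the row of the homeobox gene Msx1 shared with its antisense gene Msx1os, at 0.94, and Zfp521, a zinc finger antagonist of Runx2, at 0.58 (limma adjusted p = 0.549, 0.594 and 0.926). Sp7, which encodes osterix, read 10.13 and 10.15 against 9.84 and 10.06, a log2 difference of 0.19. Runx2 was named on no row and was not analysed here.

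Chromosome 5 neighbours of the SIBLING genes did not read lower as a list. RefSeq places Sparcl1 and Dspp ahead of Dmp1, Ibsp, Mepe and Spp1, with Pkd2 after them. Over 8 tested neighbours on that chromosome, Dspp not counted, the median was 0.18, and none passed the adjusted threshold. Within both replicates 5 were higher and 1 lower, against 17.1% and 19.1% of all tested rows. Ptpn13, a tyrosine phosphatase, had the smallest p, at 0.38 (limma adjusted p = 1). Slc10a6, a steroid sulfate transporter, differed most, at 0.88 (limma adjusted p = 1), and Sparcl1, a SPARC relative, was at 0.33.

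**Figure D3:**
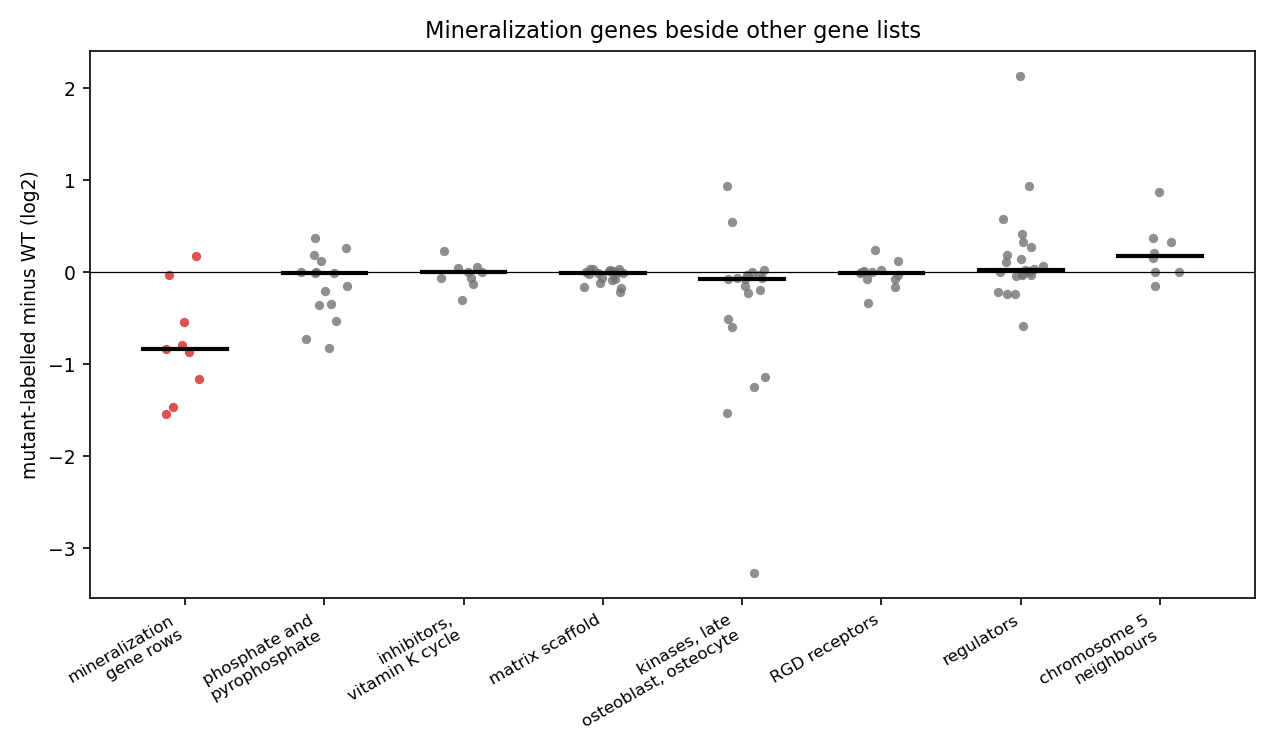
Log2 difference of the mutant-labelled minus the WT mean (y axis) for the 9 mineralization gene rows (red) and for the tested genes of 7 other lists (grey, 1 point per gene), with black bars at the medians. The mineralization rows have a median of -0.83, and the medians of the other lists lie between -0.08 and 0.18. Several lists hold genes with equal deposited values in a replicate, on which their medians partly rest.

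Markers of other cell types differed on the same arrays as the mineralization genes. Of all tested rows, 19.1% were lower and 17.1% higher within both replicates. Of 22 macrophage markers 21 were lower within both replicates and 0 higher, with a median of -1.57. Summed on the linear scale they read 3229 and 3724 on the mutant-labelled arrays and 10491 and 11347 on the WT arrays, and none lay below the floor on all arrays. Chondrocyte markers were lower within both replicates in 8 of 12 (median -0.33, linear sums 9847 and 10845 against 14047 and 14479), with none below the floor throughout. Adipocyte markers were lower in both in 7 of 9 tested (median -0.57, sums over 10 markers 2629 and 2500 against 4125 and 3727), and Adipoq, which passed the floor on 1 array, was not tested. Cell cycle genes were lower in both in 8 of 11 (median -0.38, sums 8169 and 9220 against 9544 and 10267). Endothelial markers had a median of 0.02 over 11 (-0.03 after quantile normalization again, -0.02 with arrays centred), with Cdh5, Flt1 and Emcn at 1.49, 1.36 and 1.12 (sums 974 and 1065 against 542 and 744). Osteoclast markers had a median of -0.03 over 11, with 3 lower and 2 higher within both replicates. Trem2 and Atp6v0d2 were lowest, at -1.62 and -1.24, and Acp5 and Oscar were the 2 higher. Sums over 12 osteoclast markers were 4178 and 4317 against 4429 and 4474, with Calcr below the floor on all arrays.

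Sex-linked genes also differed between the groups. The Y-linked genes Eif2s3y, Kdm5d and Uty were higher on the mutant-labelled arrays by 2.28, 2.27 and 2.17, while Sry was dim and at -0.02. The WT means of those 3 genes, 7.07, 6.94 and 7.44, still lay above the detection floor of 4.72. Xist, which coats the silenced X chromosome of female cells, was at -1.35, with means of 10.54 on the mutant-labelled and 11.89 on the WT arrays. Signal of both kinds was thus present in both groups. Within the osteoblast marker list, the members Ibsp, Ifitm5 and Bglap were lower, while the other tested members lay between -0.08 and 0.27. The part of other cell types, of the cell cycle and of sex in the mineralization gene differences was not tested.

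**Figure D4:**
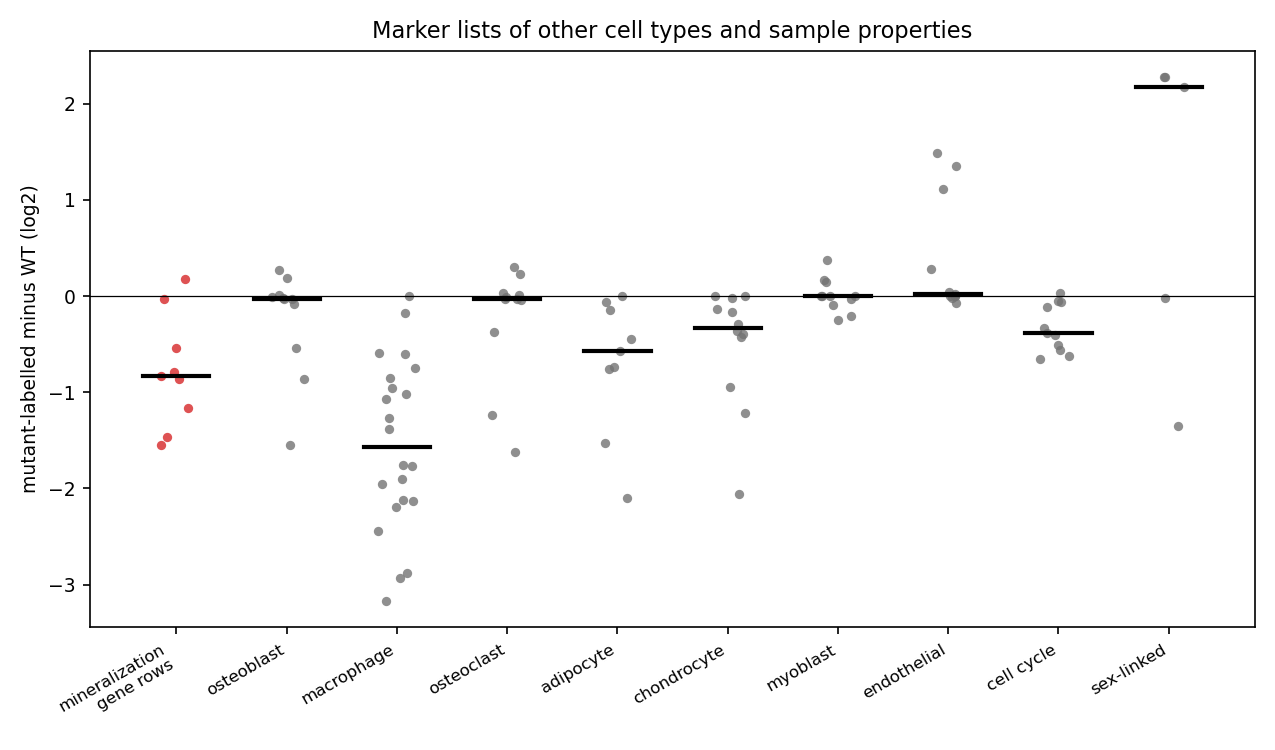
Log2 difference of the mutant-labelled minus the WT mean (y axis) for the 9 mineralization gene rows (red) and for marker genes of cell types, the cell cycle and sex (grey, 1 point per tested gene), with black bars at the medians. Macrophage markers have a median of -1.57 and osteoblast markers, which include 4 of the mineralization rows, one of -0.03.

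The genes most like Ibsp were sought among 16576 tested rows with a single symbol, by the distance between their values on the 4 arrays, each row centred on its own mean. The nearest was Ptprz1, a receptor tyrosine phosphatase, at a distance of 0.04, with differences of -1.56 and -1.49 within the replicates. Clec12a, a lectin receptor of myeloid cells, followed at 0.13, then Dynap at 0.14, Hal, a histidine-degrading enzyme, at 0.15 and the protease gene Adam8 at 0.16. With 4 arrays, this likeness is a description only.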

How the data were processed

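Expression was measured on 4 arrays, 2 mutant-labelled and 2 WT. The deposited values are log2 levels per array row, taken as base 2; per the submitters' processing notes Partek and RMA were used, with no version, role or order, and neither the log base nor the way arrays were combined is stated. Of 41345 rows, 23521 had 1 symbol in the platform annotation, 1814 several and 16010 none.

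Rows with 1 or more symbols were tested where at least 2 arrays exceeded a floor of 4.72 (the 90th percentile over 1400 rows of olfactory or vomeronasal receptors); this kept 20258 rows (80.0%). Differences were fitted in R 4.3.3 with limma 3.58.1 (group only, two-sided, Benjamini-Hochberg over all tested rows, threshold 0.05), and the fit was tested on simulated data. Rows stayed separate; list genes were read from their brightest single-symbol row, or a shared row where there was none. Named genes were the members, 9 fixed genes, up to 3 genes per direction and list with the smallest unadjusted p under 0.05 (else the one of smallest p), and the 5 nearest Ibsp; Fam20c, Sost, Fgf23, Sparcl1 Slc10a6 and the named cell type markers were added after their values were seen. Of 17 genes listed as chromosome 5 neighbours, the 6 that RefSeq (GRCm38.p6) places on chromosome 6, 1 without an entry and Dspp were left out, a choice made after the values were seen. Members and lists were chosen with earlier results of these data known. Same-numbered arrays deviated together (Pearson r = 0.92 across rows, 0.84 without rows holding equal values), but with 2 pairs and no shared litter or day in the labels the replicate number was a block only in alternatives. Precision is limited by the number of arrays. The p-values of the group-only model are set against the spread between arrays of a group, with variances moderated over all tested rows. That spread mixes differences between cultures with the offset that same-numbered arrays share.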

Additional observations from a re-analysis of the deposited data

How the results depend on the processing

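The direction of 7 mineralization gene rows, all but the Alpl rows, was kept in each of the 16 alternatives that tested them. With the replicate number as a block, 0 rows passed the adjusted threshold, 2635 had an unadjusted p under 0.05 (768 without the block), and 5 mineralization rows passed unadjusted p with 1.5-fold, the Phospho1 row being lost. Quantile normalization again with the replicate block called 309 of the 19669 rows tested in that setting. Of these, 4 were mineralization rows (limma adjusted p = 0.0436 for Ibsp, Dmp1 and Phex and 0.0491 for Ifitm5), none of which passed in any other setting. The same setting also called 15 other genes named here, among them Car3, Panx3, Sgms2, Tnfrsf19, Slc13a5, Fam20c, Ptprz1 and Xist (limma adjusted p from 0.0436 to 0.0496). An intensity trend called 49 of 20258 rows and 0 mineralization rows, with Car3, Panx3, Sgms2 and Xist the 4 named genes among them (limma adjusted p from 0.0239 to 0.0309). At 2-fold in place of 1.5-fold, 3 mineralization rows passed unadjusted p with that fold and 3 were that much lower within both replicates. The shares of all tested rows at 2-fold, or with 1 array left out, were not counted. Nor was the share at unadjusted p with 1.5-fold counted in any alternative. Member counts by these rules therefore have no background. With 1 array left out, the lone array of a group was assumed to vary like the other group and the offset between replicates stayed in the difference: the count at unadjusted p with 1.5-fold ran from 3 to 6, and the median of the mineralization rows from -0.98 to -0.67. The brighter Alpl row then ran from -0.0807 to 0.0112, the dimmer from -0.0754 to 0.439, Col1a1 from -0.0688 to 0.0491 and Col1a2 from -0.0783 to 0.042. Quantile normalization again, with or without the block, turned Col1a1 to 0.0245 and Col1a2 to 0.0132; the cause was not tested. With 1 array left out, Sost also ran from -0.383 to 0.231, Sry from -0.686 to 0.651, Acta1 from -0.642 to 0.223 and Fgf23 from -0.159 to 0.0327. The other genes given with a difference in the text kept their direction wherever an alternative tested them, leaving aside genes at 0. The count within both replicates cannot be had with an array left out. With 2 arrays a group, signal over background limits Bglap and Dspp.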
